A study of Mus musculus with 48 samples.

Results

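The 10 genes of the mouse Hoxb cluster (Hoxb1 to Hoxb9 and Hoxb13) were followed across 3 lines of embryonic stem cells. They were the rows of the deposited expression table whose symbol is one of those names, 10 of 48321 rows. The study used male R1 cells of the 129SV strain, kept without serum in 2i medium, in which MEK and GSK3 are inhibited, with LIF, conditions known to hold the cells in naive pluripotency. Of its 48 samples, 9 were used here: 3 polyadenylated RNA libraries from wild-type cells (WT), 3 from cells lacking Mll3 and Mll4 (Mll3/4 dKO) and 3 from cells whose Mll3 and Mll4 are catalytically deficient (Mll3/4 dCD). Mll3 (Kmt2c) and Mll4 (Kmt2d) are histone methyltransferases that place H3K4 monomethylation at enhancers, so dKO against WT asks about loss of the proteins and dCD against WT about loss of their catalysis. The labels name 1 line per genotype, do not describe the alleles and do not say whether replicates were separate cultures. The p-values therefore cover the spread among libraries of a line, possibly only a technical one, and clone and genotype cannot be told apart.

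Hox genes encode homeodomain transcription factors that give cells their position along the head-to-tail axis of the embryo. They lie in clusters in the order in which they are used: genes at the 3′ end, such as Hoxb1 and Hoxb2, come on early and act in the hindbrain, and genes at the 5′ end come on later and act in the trunk and tail. In embryonic stem cells the clusters are known to be held mostly silent by Polycomb complexes, and retinoic acid, Wnt and FGF signals open them during differentiation. Hoxb13 stands apart from the rest of its cluster on the 5′ side and is known for roles in the tail bud, prostate and hindgut.

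Depth was 21090624 to 56249770 recovered reads per library. It summed to 87522135 reads in WT, 88805166 in dKO and 124357800 in dCD, so a transcript of few reads was easier to see in dCD. Kmt2c measured 21.1 ± 1.22 TPM in WT, 7.66 ± 0.292 in dKO and 26.9 ± 1.65 in dCD (SD, n = 3 each). Kmt2d measured 66.4 ± 1.08, 82.9 ± 2.22 and 63.2 ± 7.44 TPM in the same order, so its transcript was not lower in the libraries labelled dKO, and a count over the whole gene does not check which exons an allele lacks. Of 8 embryonic stem cell markers all were tested, and their summed level was 13328 to 13804 TPM in WT, 6998 to 7066 in dKO and 10000 to 10355 in dCD. In dKO 1 of them was higher (Klf4) and 6 lower, and in dCD 7 were lower. Dppa5a averaged 6433, 1199 and 4909 TPM in WT, dKO and dCD, and took most of the fall of the sum in dKO. In dCD Dppa5a lost the most TPM of any marker, but the other markers together lost more. Among them, Zfp42 averaged 1623 TPM in WT and 1106 in dCD, and Sox2 1235 and 734.5. On the log2 scale Zfp42 (-0.55) and Sox2 (-0.75) fell more in dCD than Dppa5a (-0.39).

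The promoters of 3 members and 2 microRNAs of the cluster are shown. The promoters are those of the members in the reference tables used here, and all 3 genes had their highest mean level in dCD; the microRNA genes lie within the cluster. Promoters run from 250 bases before to 50 bases after a RefSeq start (GRCm38.p6, plus strand) at chr11:96281655-96281954 for Hoxb8, chr11:96318017-96318316 for Hoxb4 and chr11:96365508-96365807 for Hoxb1. Capitals mark matches on either strand to the letters TATAAA (the TATA box found near many start sites), CCAAT (a box known to bind NF-Y), TGATNNAT (a Pbx-Hox site, where N is any base), TGACAG (a Meis-Pknox site) and AGGTCA (a retinoic acid receptor motif).
Hoxb8 promoter: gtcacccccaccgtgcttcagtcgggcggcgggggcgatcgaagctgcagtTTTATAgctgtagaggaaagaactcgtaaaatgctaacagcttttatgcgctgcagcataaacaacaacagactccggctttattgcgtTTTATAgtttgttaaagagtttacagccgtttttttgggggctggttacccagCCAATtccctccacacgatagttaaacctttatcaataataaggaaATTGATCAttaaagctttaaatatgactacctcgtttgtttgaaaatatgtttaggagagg
Hoxb4 promoter: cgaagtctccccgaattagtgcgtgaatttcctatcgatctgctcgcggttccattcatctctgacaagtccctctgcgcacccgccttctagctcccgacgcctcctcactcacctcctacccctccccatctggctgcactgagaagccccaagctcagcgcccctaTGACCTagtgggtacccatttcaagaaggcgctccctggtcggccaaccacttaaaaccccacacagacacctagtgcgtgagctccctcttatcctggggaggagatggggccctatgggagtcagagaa
Hoxb1 promoter: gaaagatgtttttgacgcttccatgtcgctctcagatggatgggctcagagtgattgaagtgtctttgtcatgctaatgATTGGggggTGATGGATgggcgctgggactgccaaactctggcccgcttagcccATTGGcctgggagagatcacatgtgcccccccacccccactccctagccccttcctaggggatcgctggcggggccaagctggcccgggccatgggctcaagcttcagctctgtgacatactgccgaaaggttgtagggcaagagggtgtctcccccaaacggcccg
mmu-miR-196a-5p: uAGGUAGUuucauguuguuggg
mmu-miR-10a-5p: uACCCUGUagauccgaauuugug
In the microRNAs the capitals mark the seed (bases 2 to 8), the part that pairs with target transcripts. The mature sequences lie at chr11:96265187-96265208 (miR-196a-5p, between Gm53 and Hoxb9) and chr11:96317186-96317208 (miR-10a-5p, within the span of Hoxb3), both on the plus strand, and their seeds differ. The Hoxb8 promoter held 2 TATA box matches (as TTTATA), 1 CCAAT box and 1 Pbx-Hox match (ATTGATCA, on the minus strand). Both TATA box matches were on the minus strand and began at -199 and -110 bases from the start. The Hoxb1 promoter held 2 CCAAT box matches and 1 Pbx-Hox match (TGATGGAT, on the plus strand), and the Hoxb4 promoter held 1 retinoic acid receptor motif (as TGACCT). Among 32851 RefSeq promoters of the same length, 13.6% held TATAAA, 37.4% CCAAT, 8.85% TGATNNAT, 19.2% TGACAG and 16.3% AGGTCA on either strand. CG dinucleotides numbered 13 in the Hoxb8 promoter, 14 in Hoxb4 and 10 in Hoxb1, against a median of 7 over all promoters. A match is a description of letters and was not tested as a binding site.

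In WT cells the cluster was almost silent. The 10 members summed to 4.54 to 5.34 TPM per library (TPM is a transcript's share of all transcripts, corrected for length), and 4 genes carried nearly all of it: Hoxb4, Hoxb9, Hoxb13 and Hoxb7. In that order their mean levels were 1.60, 1.23, 1.11 and 0.815 TPM, and the libraries of each overlapped with those of the next. Hoxb8 came next at 0.113 TPM, below every library of Hoxb7. Hoxb3 had 1 read in the 3 WT libraries together, and Hoxb1, Hoxb2, Hoxb5 and Hoxb6 had 0. A count of 0 over the 3 WT libraries allows up to 3 reads, or 0.0343 RPM (reads per 1000000 recovered reads), and such limits cover counting error only.

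The mutant lines held more Hoxb RNA, in different proportions. The summed level was 19.8 to 20.5 TPM in the dKO libraries and 11.6 to 12.1 TPM in the dCD libraries, and no library of one line overlapped with those of another. In dKO the order was Hoxb13, Hoxb9, Hoxb4, Hoxb7 and Hoxb8, each apart from the next in every library. In dCD Hoxb9 and Hoxb4 led with overlapping libraries, followed by Hoxb13 and then Hoxb7, whose libraries overlapped with those of Hoxb8. Hoxb13 made up 60.2% to 63.4% of the summed level in dKO, 18.6% to 29.9% in WT and 16.6% to 18.7% in dCD. In bulk RNA, more cells expressing a gene and more RNA per cell cannot be told apart.

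**Figure D1:**
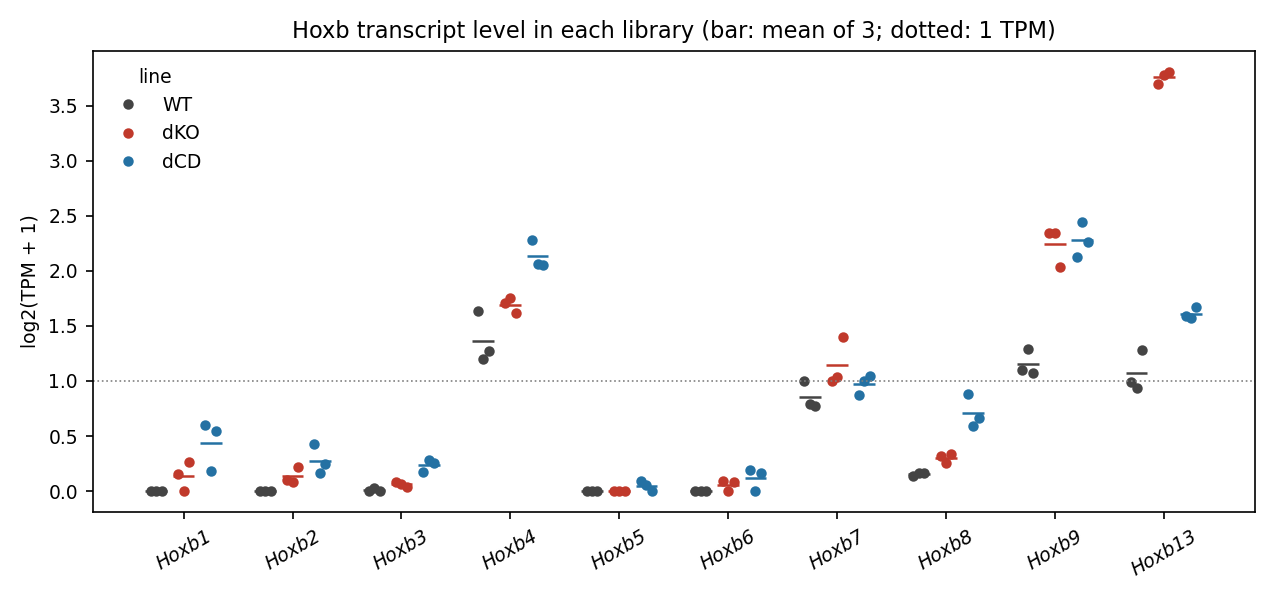
Transcript level of each Hoxb gene as log2(TPM + 1), 1 point per library, with the mean of 3 libraries as a bar and 1 TPM as a dotted line. Hoxb13 in dKO stands at 11.9 to 13.0 TPM, above every other point, while Hoxb4 and Hoxb8 are highest in dCD.

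For the tests, genes with at least 1 TPM in at least 3 of the 9 libraries (16179) were fitted with limma on log2(TPM + 1), and its fold changes are on that scale, on which low genes appear to change less than they do. Of the members, 4 passed this minimum. Hoxb4 and Hoxb9 reached 1 TPM in all 9 libraries, Hoxb13 in 7, and Hoxb7 in 5, all of them mutant libraries, so the members that passed are not a neutral sample of the cluster. Values from voom, limma's method for read counts, were fitted on genes with at least 10 reads in all (23301), a minimum chosen after seeing the data, and it adds Hoxb1, Hoxb2, Hoxb3 and Hoxb8. Hoxb1, Hoxb2 and Hoxb3 passed it through their reads in dCD: WT and dKO together held 6, 9 and 6 reads. Counts over the members tested this way are therefore a description, and nothing is read from them against the share over all genes. Hoxb5 and Hoxb6 had too few reads for either.

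In cells lacking the Mll3 and Mll4 proteins, the largest fold changes among the 4 tested members were those of Hoxb13 and Hoxb9. Hoxb13 was 11.3-fold higher in dKO than in WT by mean TPM, and Hoxb9, a trunk-patterning gene next in the cluster, was 3.04-fold higher. Hoxb4, known in blood stem cells and neck vertebrae, was 1.39-fold higher, a call that not every alternative kept. In limma, 3 of the 4 tested members were higher at an adjusted p under 0.05 and 0 lower, against 43.4% higher and 28.4% lower among all tested genes. At 2-fold as well, 2 of the 4 were higher, where 6.01% of all tested genes were. The median log2 fold change was 0.70 over the 4 members and 0.10 over all tested genes.

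Hoxb13 measured 0.990, 0.919 and 1.42 TPM in WT, 11.9, 12.7 and 13.0 in dKO, and 2.01, 1.97 and 2.19 in dCD. Every dKO library stood above every dCD library and every dCD library above every WT library, with overlap in none of the 3 comparisons. These levels rest on 62 reads in WT, 731 in dKO and 172 in dCD. The log2 fold change of Hoxb13 in dKO against WT was 2.69 (SE 0.0944, 95% interval 2.48 to 2.90, limma adjusted p = 2.18e-09), and 3.52 with voom.

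Hoxb9 measured 1.15, 1.45 and 1.10 TPM in WT, 4.06, 4.09 and 3.09 in dKO, and 3.37, 4.45 and 3.80 in dCD. Both mutant lines stood apart from WT, while their libraries overlapped with each other. The log2 fold change in dKO against WT was 1.08 (SE 0.119, limma adjusted p = 1.35e-05), and 1.51 with voom.

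Hoxb4 measured 2.10, 1.30 and 1.41 TPM in WT, 2.27, 2.36 and 2.06 in dKO, and 3.84, 3.18 and 3.15 in dCD. The dCD libraries were all higher than the others, and WT replicate 1 lay within the dKO range. The log2 fold change of Hoxb4 in dKO against WT was 0.32 (SE 0.122, limma adjusted p = 0.0352) and 0.51 with voom, and the adjusted p ran from 0.00321 to 0.128 over the alternatives. This call was lost in 7 of them, 4 of which left out 1 library: WT replicate 2 (0.128), WT replicate 3 (0.104), dKO replicate 1 (0.0769) or dKO replicate 2 (0.0953).

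Hoxb7, a trunk gene between Hoxb8 and Hoxb6, measured 0.999, 0.735 and 0.712 TPM in WT, 1.0, 1.05 and 1.64 in dKO, and 0.836, 1.0 and 1.07 in dCD. WT replicate 1 and dKO replicate 1 were nearly level, and dKO replicate 3 was the highest. On 33, 50 and 57 reads, Hoxb7 passed the test in neither mutant: its log2 fold change was 0.29 in dKO (95% interval -0.01 to 0.59, limma adjusted p = 0.0747) and 0.12 in dCD (-0.18 to 0.42, adjusted p = 0.473).

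**Figure D2:**
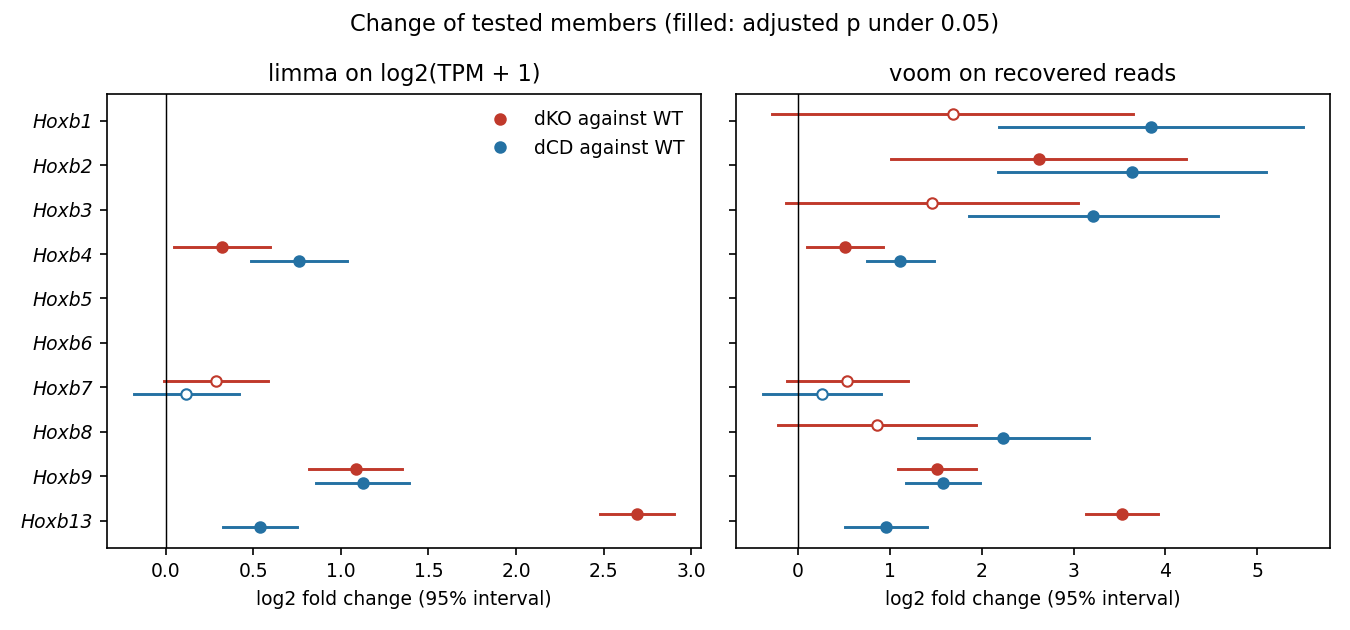
Log2 fold change against WT with its 95% interval, for the 4 members tested with limma on log2(TPM + 1) (left) and the 8 tested with voom on recovered reads (right); filled points passed an adjusted p of 0.05. Hoxb13 is the member where dKO lies far beyond dCD, and Hoxb1, Hoxb3 and Hoxb8 are filled for dCD alone; fitted values of Hoxb1 and Hoxb2, with 0 reads in WT, are no bound on the fold.

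In cells with catalytically deficient Mll3 and Mll4, no single member dominated. Hoxb9 was 3.14-fold, Hoxb4 2.12-fold and Hoxb13 1.85-fold higher in dCD than in WT by mean TPM. In limma, 3 of the 4 tested members were higher in dCD and 0 lower, against 28.9% higher and 29.5% lower among all tested genes. At 2-fold as well, 1 of the 4 (Hoxb9) was higher, where 4.62% of all tested genes were. The median log2 fold change was 0.65 over the 4 members and -0.01 over all tested genes. The comparisons with dKO and with dCD share the WT libraries, so their values are given side by side and were not set against each other as independent results.

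In dCD against WT the log2 fold change of Hoxb9 was 1.12 with an SE of 0.119 (limma adjusted p = 1.88e-05), and 1.57 with voom. That of Hoxb4 was 0.76 (SE 0.122, limma adjusted p = 0.000368), and 1.11 with voom. That of Hoxb13 was 0.54 (SE 0.0944, limma adjusted p = 0.000667), and 0.96 with voom, a 1.95-fold ratio of reads per depth (95% interval 1.45 to 2.65, counting error only). For each of these 3 genes all dCD libraries lay above all WT libraries.

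The genes at or below 1 TPM showed their reads mostly in dCD. Hoxb8, which patterns the trunk and is known in myeloid cells, measured 0.0975, 0.123 and 0.119 TPM in WT, 0.245, 0.192 and 0.262 in dKO, and 0.839, 0.509 and 0.581 in dCD. The 3 lines did not overlap, with WT lowest and dCD highest. The reads numbered 8, 16 and 63, a ratio to WT of 1.97 in dKO (95% interval 0.796 to 5.32) and 5.54 in dCD (2.65 to 13.4).

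Hoxb3, a hindbrain and neck gene whose span in RefSeq overlaps Hoxb4, measured 0, 0.0191 and 0 TPM in WT, 0.0608, 0.0476 and 0.0271 in dKO, and 0.130, 0.219 and 0.194 in dCD. The lines did not overlap. Against 1 read in WT there were 5 in dKO, a ratio of 4.93 (95% interval 0.551 to 233), and 29 in dCD, a ratio of 20.4 (3.38 to 834).

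Hoxb2, which acts in the hindbrain, had 0 reads in every WT library, 2, 2 and 5 in dKO, and 13, 4 and 11 in dCD. Every mutant library held reads and the levels of dKO and dCD overlapped. Against the limit of 3 reads for WT as a group, the observed Hoxb2 reads were 2.96-fold higher per depth in dKO and 6.57-fold higher in dCD. The counting error of the mutant reads is left out, so these ratios are not lower bounds.

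Hoxb1, a hindbrain segment gene and a direct target of retinoic acid, had 0 reads in every WT library, 2, 0 and 4 in dKO, and 13, 3 and 18 in dCD. The dCD libraries lay above WT, dKO replicate 2 was at 0 as the WT libraries were, and dCD replicate 2 was the lowest of its line. Against the limit of 3 reads for WT, the observed Hoxb1 reads were 1.97-fold higher per depth in dKO and 7.98-fold higher in dCD. These ratios, too, are not lower bounds.

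Hoxb6 had 0 reads in WT, 2 in dKO and 7 in dCD, with 0 reads in replicate 2 of both mutants. Against the same limit for WT, the observed dCD reads were 1.64-fold higher per depth, again not a lower bound. Hoxb5 had 3 reads in dCD and 0 elsewhere, too few for a fold. Hoxb5os, a noncoding RNA that overlaps both genes, had 1 read, in dCD.

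**Figure D3:**
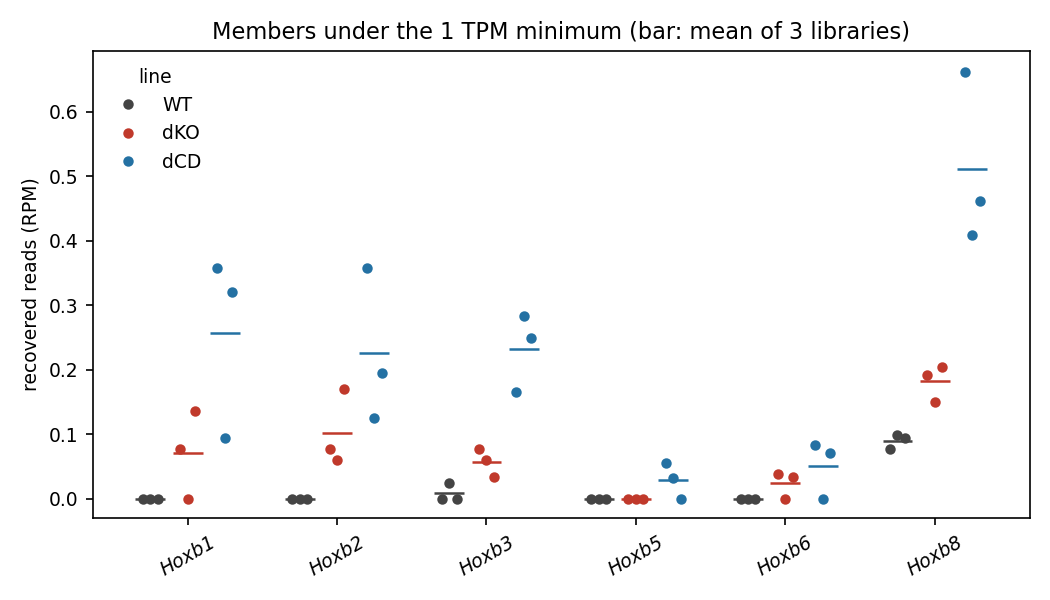
Recovered reads, scaled to depth as RPM, for the 6 Hoxb genes that failed the 1 TPM minimum, 1 point per library, with the mean of 3 libraries as a bar. The dCD points of Hoxb8, Hoxb3, Hoxb2 and Hoxb1 lie above all WT points, and dCD replicate 2 is the lowest dCD point for Hoxb1 and Hoxb2.

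With voom on at least 10 reads, 7 of the 8 tested members were higher in dCD than in WT, where 24.9% of all genes tested that way were, and Hoxb7 was the exception (adjusted p = 0.535). The low genes among them were Hoxb8 (log2 fold change 2.24, SE 0.456, voom adjusted p = 9.51e-05), Hoxb3 (voom adjusted p = 0.000121), Hoxb2 (6.12e-05) and Hoxb1 (0.000151). The count was 7 whichever of the 9 libraries was left out, dCD replicate 2 included. Hoxb1, Hoxb2 and Hoxb3 entered this test through their dCD reads, which favoured a call of higher in dCD. The count of 7, also with a library left out, is therefore a description only. In dKO against WT 4 of the 8 were higher, where 32.4% of all genes tested were: Hoxb13, Hoxb9, Hoxb4 and Hoxb2 (voom adjusted p = 0.00473 for Hoxb2). In dKO the tests of Hoxb8 (adjusted p = 0.175), Hoxb3 (0.112) and Hoxb1 (0.140) did not pass with voom. Without dKO replicate 2 the log2 fold change of Hoxb1 in dKO moved from 1.68 to 2.78 and passed (voom adjusted p = 0.00729). The voom call of Hoxb4 in dKO was lost without WT replicate 2 (adjusted p = 0.274), WT replicate 3 (0.0699), dKO replicate 1 (0.0575) or dKO replicate 2 (0.0897).

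Set against each other, the mutant lines differed in opposite directions at Hoxb13 and Hoxb4. In limma, Hoxb13 was higher in dKO than in dCD (log2 difference 2.15, 6.12-fold by mean TPM, limma adjusted p = 1.45e-08), and Hoxb4 was lower in dKO (-0.44, limma adjusted p = 0.00857). That is 1 higher and 1 lower of 4, against 42.3% higher and 27% lower among all tested genes. Hoxb9 did not pass: the log2 difference was -0.04 with a 95% interval of -0.30 to 0.23 (limma adjusted p = 0.783). Hoxb7 did not pass either (0.17, -0.13 to 0.47, limma adjusted p = 0.278).

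With voom, Hoxb13 alone was higher in dKO than in dCD, 1 of 8 where 31.2% of all genes tested were higher. In dKO 4 members were lower, where 25.4% of all genes were: Hoxb4 (-0.60, voom adjusted p = 0.00159), Hoxb8 (-1.38, 0.00197), Hoxb3 (-1.76, 0.00597) and Hoxb1 (-2.16, 0.00734). The call of Hoxb1 rested on dKO replicate 2, its library with 0 reads: without it the log2 difference was -1.06 (voom adjusted p = 0.157). Hoxb2 had fewer reads per depth in dKO but did not pass (voom adjusted p = 0.0956), except without dCD replicate 2 (0.0411). The gene higher in dKO lies at the 5′ end of the cluster. Hoxb3 and Hoxb1 entered the voom test through their dCD reads, which favoured a call of lower in dKO. No pattern along the cluster is read from these calls.

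Scaling changed how all genes split in dKO against WT. With TPM the tested genes divided into 7021 higher and 4596 lower, and with median-ratio scaling into 5636 and 5650, as the median of all genes moved from 0.0956 to 0.00553. Under that scaling Hoxb13 and Hoxb9 stayed higher in dKO, and Hoxb4 did not pass (log2 fold change 0.26, limma adjusted p = 0.0813).

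The genes around the cluster did not follow it as a block. Of 15 flanking genes listed, 11 were tested. In dKO against WT 3 were higher and 7 lower (all tested genes: 43.4% and 28.4%), with a median of -0.20. In dCD against WT 6 were higher and 1 lower (28.9% and 29.5%), with a median of 0.13. Calcoco2, an autophagy receptor gene, fell from 316 ± 5.30 TPM in WT to 11.3 ± 0.626 in dKO (SD, n = 3 each), or by -4.69 on the log2 scale (limma adjusted p = 3.61e-13), and measured 498 ± 8.57 in dCD. Ttll6, a tubulin-modifying enzyme gene between Calcoco2 and Hoxb13, measured 6.11 ± 0.598, 0.907 ± 0.227 and 5.08 ± 0.554 TPM, with a log2 fold change in dKO of -1.90 (limma adjusted p = 9.69e-08). So Hoxb13 rose in dKO where its 2 nearest protein-coding neighbours on the 5′ side fell; Calcoco2 and Ttll6 overlap in RefSeq, so their reads may not be fully separate.

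On the 3′ side of Hoxb1, Copz2, a coat-protein gene, stood at -1.96 on the log2 scale in dKO (limma adjusted p = 1.95e-07), Cbx1, which encodes heterochromatin protein HP1 beta, at -0.55, and Snx11 at -0.34. Atp5g1 (-0.20) and Snf8 (-0.11), on the 5′ side beyond Calcoco2, were also lower in dKO. Ube2z (0.10) on that 5′ side, and Nfe2l1 (0.08) and Cdk5rap3 (0.09) on the 3′ side, were slightly higher, near the median of all genes. Igf2bp1, on the 5′ side, did not pass (-0.03, limma adjusted p = 0.563). In dCD the log2 fold changes were 0.65 for Calcoco2, 0.33 for Nfe2l1, 0.19 for Atp5g1, 0.19 for Ube2z, 0.17 for Snf8, 0.13 for Igf2bp1 and -0.32 for Cdk5rap3, the 7 that passed. Skap1, the nearest protein-coding gene on the Hoxb1 side, did not reach the 1 TPM minimum.

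**Figure D4:**
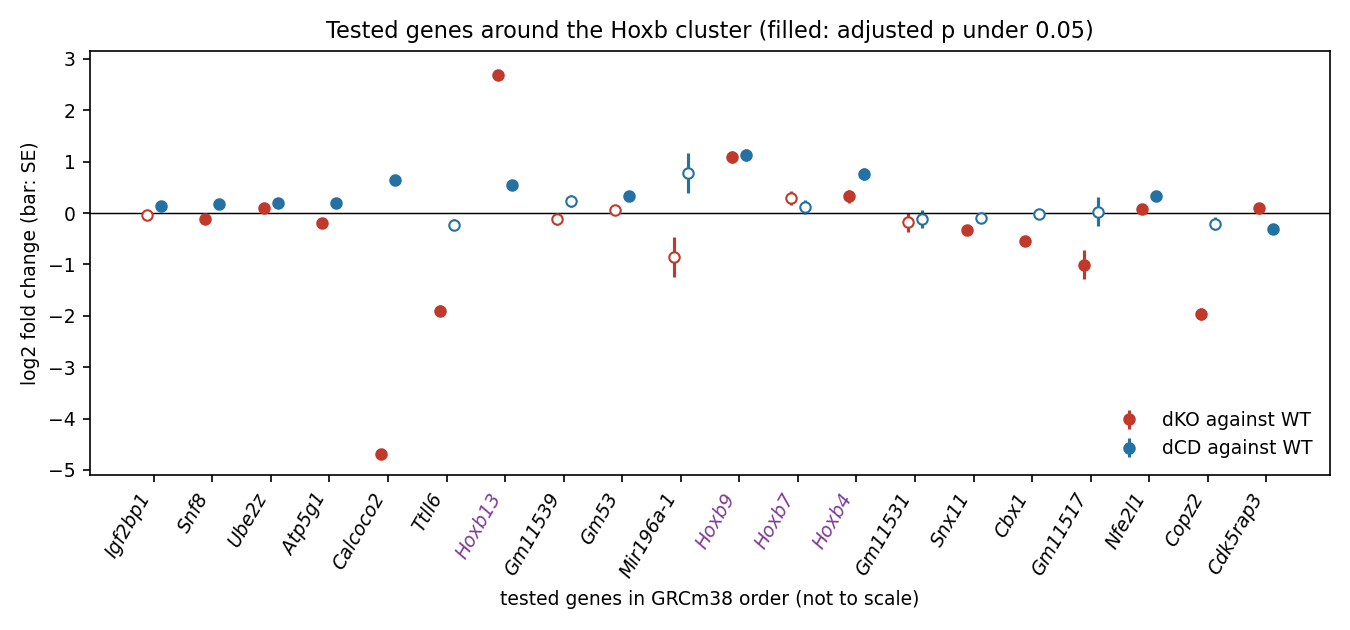
Log2 fold change against WT (points, SE as bars, limma on log2(TPM + 1)) of all tested genes of the locus in chromosome order, which is not to scale; filled points passed an adjusted p of 0.05 and Hoxb genes are in purple. Calcoco2 at -4.69 and Hoxb13 at 2.69 in dKO lie 2 places apart, while the dCD points stay between -0.32 and 1.12.

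Of the noncoding genes of the cluster, 9 had a row and 2 were tested. Gm53, a long noncoding RNA between Hoxb13 and Hoxb9, was above every Hoxb gene at 15.8 ± 0.438 TPM in WT, 16.4 ± 0.986 in dKO and 20.4 ± 1.78 in dCD (SD, n = 3 each). Its log2 fold change was 0.05 in dKO against WT (limma adjusted p = 0.494) and 0.34 in dCD (limma adjusted p = 0.00106). It did not pass the test in dKO, where Hoxb13 and Hoxb9 on either side of it rose. Mir196a-1, the gene of miR-196a-5p printed above, had 0 to 7 reads per library and was not called against WT in either mutant. Mir196a-1 was lower in dKO than in dCD (log2 difference -1.64, limma adjusted p = 0.00387), on 2 reads in dKO and 16 in dCD. The gene is 102 bases long, and 1 read gave 1.27 TPM in dKO replicate 1, so single reads could pass the minimum. Mir10a, the gene of miR-10a-5p, had 0 reads in all 9 libraries; mature microRNAs are not polyadenylated and are not measured by such libraries. Hoxb3os, which overlaps Hoxb3 and Hoxb2, had 6 reads, all in dCD, and as no strand setting is stated, reads of genes that overlap cannot be told apart.

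Of the 4 Hox clusters, Hoxb had the lowest summed level in each of the 9 libraries. The Hoxa cluster, where 11 of 11 genes were tested and 11 higher in dKO than in WT, summed to a mean of 6.71 TPM in WT, 269.5 in dKO and 15.5 in dCD. Hoxc (9 of 9 higher in dKO) summed to 31.4, 131.2 and 30.4 TPM, Hoxd (5 of 5 tested higher) to 19.2, 47.8 and 16.1, and Hoxb to 4.88, 20.3 and 11.8. The median log2 fold changes of the tested genes in dKO against WT were 2.72 for Hoxa, 2.20 for Hoxc, 1.29 for Hoxd and 0.70 for Hoxb. In dCD against WT they were 0.26, 0.33, -0.12 and 0.65 in the same order. Among all tested genes 43.4% were higher in dKO than in WT. Hoxa4, Hoxa6, Hoxa9, Hoxa10, Hoxa11, Hoxa13, Hoxc5, Hoxc6, Hoxc8, Hoxc10, Hoxc11, Hoxd10 and Hoxd11 reached 1 TPM only in dKO libraries. For them the minimum favoured a call of higher in dKO, so the counts and medians of the clusters are a description only. The differences between clusters were not tested.

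Among the paralogues, genes of the same number in other clusters, the group 13 genes were all higher in dKO than in WT. Hoxa13 measured 0.310 ± 0.118 TPM in WT and 7.64 ± 0.738 in dKO, Hoxc13 15.5 ± 0.732 and 35.4 ± 0.431, and Hoxd13 7.13 ± 0.404 and 14.5 ± 0.592 (SD, n = 3 each). In dCD Hoxc13 (log2 fold change -0.41, limma adjusted p = 5.66e-05) and Hoxd13 (-0.30, 0.00193) were lower than in WT, whereas Hoxb13 was higher. The 5′ gene Hoxa10, not present in Hoxb, had the smallest adjusted p of Hoxa in dKO (0.607 to 89.7 TPM).

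**Figure D5:**
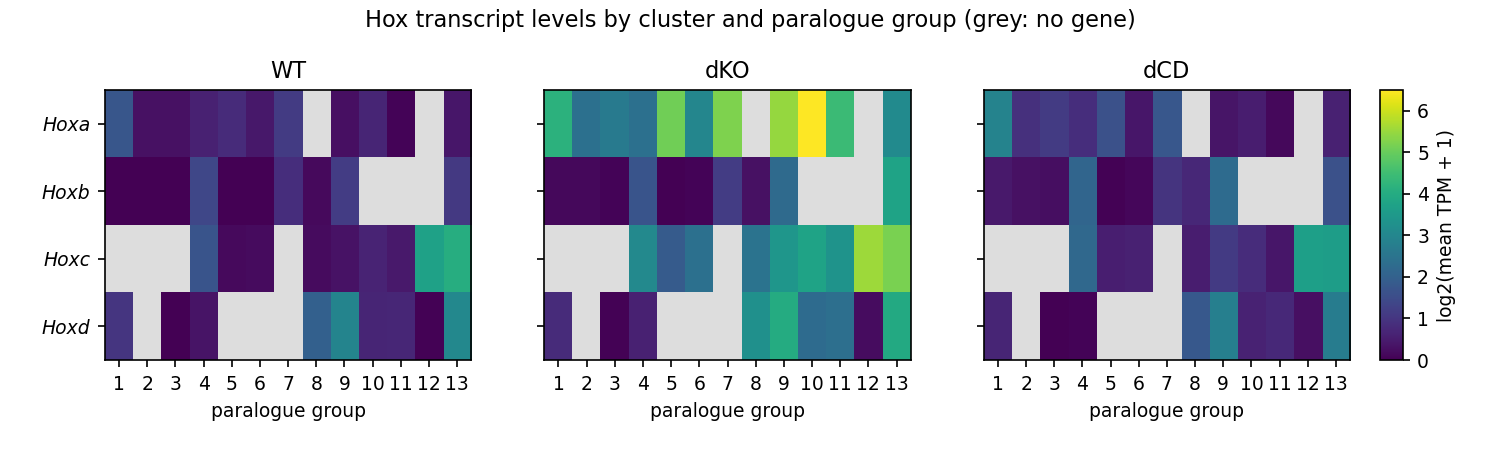
Mean level of every Hox gene (log2 of mean TPM + 1) by cluster (rows) and paralogue group (columns) in each line; grey marks paralogue groups a cluster lacks. The brightest cells of the Hoxb row are Hoxb13, Hoxb9 and Hoxb4 in dKO and Hoxb9, Hoxb4 and Hoxb13 in dCD, while the Hoxa and Hoxc rows are brightest in dKO.

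Hox proteins bind DNA with TALE cofactors, the Pbx, Meis and Pknox homeodomain proteins. Of 9 TALE genes tested, 5 were higher and 3 lower in dKO against WT (all tested genes: 43.4% and 28.4%), and 6 higher and 2 lower in dCD (28.9% and 29.5%), with medians of 0.11 and 0.29. Meis1 measured 0.605 ± 0.0401 TPM in WT, 7.36 ± 0.418 in dKO and 2.05 ± 0.161 in dCD. Meis1 rose in both mutants, while Pbx3 rose in dKO (log2 fold change 1.23) and not in dCD (0.00, limma adjusted p = 0.967), and Pbx2 rose in both (0.26 and 0.29).

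Of 17 regulators known to act upstream of Hox genes, 14 were tested: 8 were higher and 4 lower in dKO, and 6 higher and 3 lower in dCD, beside the same shares of all genes. Aldh1a2, which makes retinoic acid, measured 9.76 ± 0.945 TPM in WT, 2.39 ± 0.145 in dKO and 9.50 ± 0.0968 in dCD. Rarg, a retinoic acid receptor gene, was lower in both mutants (log2 fold changes -0.93 and -0.33), and Cyp26a1, which degrades retinoic acid, was higher in both (1.92 and 1.02). The other tested receptor genes of the list were higher in dKO: Rara (0.47), Rarb (0.54), Rxra (0.23) and Rxrb (0.35). In dCD Rarb was higher (0.40), and Rara, Rxra and Rxrb did not pass. Gbx2, a mid-hindbrain homeobox gene, was higher in dKO (1.52) and lower in dCD (-0.17). Of 22 trithorax and Polycomb genes, 10 were higher and 7 lower in dKO and 10 higher and 6 lower in dCD, with medians of 0.10 and 0.08. The dKO counts are near the shares over all tested genes (43.4% and 28.4%), and in dCD those shares were 28.9% and 29.5%. The Polycomb subunit genes Suz12 (-0.78), Mtf2 (-0.75) and Eed (-0.42) were lower in dKO, and the Polycomb cofactor gene Jarid2 (0.58) was higher.

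Markers of other cell types moved with the lines as well, and their counts, too, stand beside the shares of all tested genes (43.4% higher and 28.4% lower in dKO, 28.9% and 29.5% in dCD). Markers of hindbrain and spinal neural cells summed to 17.5 to 17.8 TPM in WT, 71.1 to 75.1 in dKO and 32.4 to 35.9 in dCD, with 3 of 5 tested higher and 1 lower (Pax6) in dKO and 5 of 5 higher in dCD. Sox1 alone averaged 14.3, 60.1 and 18.8 TPM in the same order and carried most of the rise of the sum in dKO. Fibroblast and feeder markers summed to 2.88 to 3.07, 13.2 to 14.6 and 19.6 to 21.0 TPM, with 3 of 4 tested higher and 1 lower (Thy1) in dKO and 4 of 4 higher in dCD, with Col1a1 at 0.470, 10.2 and 7.57 TPM on average in WT, dKO and dCD. Of the untested genes of that list, Dcn averaged 0.0968, 0.141 and 0.488 TPM in the same order, Pdgfra 0.169, 0.607 and 0.875, Postn 0.00311, 0.118 and 0.135, Twist2 0, 0.0773 and 0.0766, and Lum 0.0252, 0.0348 and 0. Markers of posterior axial progenitors, in which 5′ Hox genes are normally used, summed to 44.2 to 48.7, 14.9 to 17.4 and 42.1 to 46.5 TPM, with 2 of 7 tested higher and 4 lower in dKO and 1 higher and 2 lower in dCD. Cdx1 alone averaged 34.55, 8.46 and 30.2 TPM in WT, dKO and dCD and carried most of the fall of that sum in dKO. Markers of extraembryonic mesoderm summed to 99.9 to 107.7, 60.6 to 61.9 and 102.8 to 111.7 TPM, with 2 of 6 tested higher and 3 lower in dKO and 4 higher and 1 lower in dCD. Their part in the Hoxb values was not tested.

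Among 2563 candidate genes with a span of at least 1 on the log2 scale, 5 had the pattern most like the mean of Hoxb4, Hoxb7, Hoxb9 and Hoxb13 over the 9 libraries. They were Tbc1d5, Cd302, P3h4, Pla2g4a and Igfbp3, with Pearson r of 0.998, 0.998, 0.998, 0.998 and 0.997. Igfbp3, for example, measured 7.58 ± 1.05 TPM in WT, 42.9 ± 1.45 in dKO and 22.6 ± 1.28 in dCD (SD, n = 3 each). The 9 libraries fall into 3 lines, so such values describe the order of the line means and little more. The averaged Hoxb profile was highest in dKO, as Hoxb13 and Hoxb7 were. Hoxb4 was highest in dCD and Hoxb9 overlapped between the mutants, so the 5 genes need not follow each member.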

How the data were processed

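The 9 polyadenylated RNA libraries came as 1 deposited table of TPM values per gene and library with gene lengths, made by the authors. Build mm9 and HISAT2, featureCounts and DESeq2 are named, without versions or roles, per the submitters' processing notes; no source used here gives a strand setting or the handling of multiply matching reads. Samples were grouped by title. TPM times length gave whole reads for 100% of values within 0.01, which gave the depth of each library. The test was limma's (version 3.58.1, run in R 4.3.3) on genes with at least 1 TPM in 3 libraries (lmFit, eBayes with trend, all 9 libraries in 1 fit, pseudocount 1, two-sided, Benjamini-Hochberg over all 16179 genes, threshold 0.05); the scripts were tested on simulated data. Intervals for ratios of reads are exact binomial. Alternatives were a pseudocount of 0.1, other minima, voom on recovered reads, median-ratio scaling, 2 lines only, a replicate block and leaving out each library. The members and gene lists were chosen with earlier results of these data known. All members were named, and of each list at most the 4 tested genes with the smallest adjusted p in dKO against WT. Every tested flanking and noncoding gene was named as well. Other genes (Skap1, Mir10a, Hoxb5os, Hoxb3os, Hoxa13, Lum, Dcn, Pdgfra, Postn, Twist2, Rara, Rarb, Rxra, Rxrb) were named after their values were seen. Sequences and gene order are from RefSeq tables of GRCm38.p6; all 10 members had an entry for gene order and 3 a promoter. The ChIP-seq, ATAC-seq and other samples were not analysed here. One gene that the naming rule selects is not reported here.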

Additional observations from a re-analysis of the deposited data

How the results depend on the processing

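Of 204 recomputed fold changes of the 4 tested members, 195 kept their direction and side of the threshold, 7 lost the call (all Hoxb4 in dKO against WT; apart from single libraries, adjusted p was 0.0868 with no minimum, 0.0813 with median-ratio scaling and 0.0547 with 2 lines in limma) and 2 changed sign. The latter were Hoxb9 in dKO against dCD, never called. Its log2 difference ranged from -0.12 with median-ratio scaling to 0.065 without dKO replicate 3 and stood at 0.04 without dCD replicate 2. In dCD against WT 3 members were called; 7 were called with no minimum, 7 with voom on at least 10 reads, and 1 with a 2-fold threshold, because more or fewer genes could pass. In dKO against dCD 2 were called; 4 were called with no minimum, 5 with voom on at least 10 reads, and 1 at 2-fold. Leaving out 1 library changed no count of called members by more than 1.5 times, but moved calls of Hoxb4, Hoxb1 and Hoxb2 as given beside them; the voom minimum and its leave-out fits were chosen after seeing the data. With a pseudocount of 0.1, Hoxb13 in dCD moved from 0.54 to 0.85. Replicate numbers did not pair the libraries: deviations of same-numbered libraries correlated at -0.0494 to 0.0424, and a replicate block changed no call of a member. Members with under 10 reads (Hoxb5 and Hoxb6) had no test of read counts, and a count of 0 in WT allows levels of up to 0.0343 RPM.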
